A study of Mus musculus with 4 samples.

Results

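The transcripts described here are those of 6 mouse genes of the inhibin, activin and follistatin system: Inha, Inhba, Inhbb, Fst, Fstl3 and Tgfbr3. They were taken by name and found on the array through the RefSeq accession that the scanner files give for each probe. Inha and Inhbb each had a pair of probes and the other genes 1 each, which made 8 of 41174 probes and 6 of the 21986 genes tested. The samples were whole gonads of male embryos of the mouse line MCH, all wild type and untreated. They were taken on 4 successive days of gestation, named for the embryonic day: E12.5 and E13.5, when testis cords form, and then E14.5 and E15.5. Every stage had a pair of one-colour arrays, biological duplicates in the words of the series text, so 8 arrays in 4 groups were compared. How many embryos gave the RNA of an array is not stated in the sources used here.

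Inhibins and activins are dimers of the same subunits. An alpha subunit (Inha) joined to a beta subunit (Inhba or Inhbb) makes an inhibin, and beta subunits joined to each other make the activins, which signal through serine/threonine kinase receptors and SMAD proteins. Follistatin (Fst) and the follistatin-like protein of Fstl3 bind activin and keep it from its receptors, and betaglycan, the product of Tgfbr3, is a co-receptor through which inhibin blocks activin. In the mouse fetal testis Inha is known from Sertoli and Leydig cells, Inhba from fetal Leydig cells and Inhbb from Sertoli cells, whereas Fst is known as a gene of supporting cells in the fetal ovary.

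Promoter windows of the 3 subunit genes are shown because the results turn on these genes, of which 2 rose and 1 did not pass the test. Each runs from 250 bases before to 50 bases after an annotated start, 5′ to 3′ on the strand of the gene, and comes from RefSeq on the build GRCm38.p6. Capitals mark a match to the TATA box letters TATAAA.
Inha, chr1:75507359-75507658, plus strand: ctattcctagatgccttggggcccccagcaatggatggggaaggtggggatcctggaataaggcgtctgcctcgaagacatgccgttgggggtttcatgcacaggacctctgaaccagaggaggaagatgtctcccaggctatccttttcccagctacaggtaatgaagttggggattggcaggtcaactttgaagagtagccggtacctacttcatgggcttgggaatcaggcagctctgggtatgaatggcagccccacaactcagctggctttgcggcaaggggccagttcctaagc
Inhba, chr13:16011601-16011900, plus strand: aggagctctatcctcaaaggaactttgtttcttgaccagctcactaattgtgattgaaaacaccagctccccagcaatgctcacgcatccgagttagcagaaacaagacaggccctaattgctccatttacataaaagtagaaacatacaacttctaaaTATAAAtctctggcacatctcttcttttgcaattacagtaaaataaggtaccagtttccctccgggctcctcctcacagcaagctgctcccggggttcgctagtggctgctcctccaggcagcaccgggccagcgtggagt
Inhbb, chr1:119422199-119422498, minus strand: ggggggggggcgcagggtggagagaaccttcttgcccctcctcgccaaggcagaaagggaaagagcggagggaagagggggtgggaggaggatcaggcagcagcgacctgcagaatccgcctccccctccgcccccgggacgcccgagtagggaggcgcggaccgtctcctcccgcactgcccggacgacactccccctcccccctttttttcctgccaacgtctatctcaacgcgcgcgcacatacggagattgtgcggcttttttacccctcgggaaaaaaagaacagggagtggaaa
Their GC content was 55.3% for Inha, 47.7% for Inhba and 64.3% for Inhbb. In the RefSeq gene table the Inha and Inhba genes begin upstream of these windows, so each window stands at a later annotated start. On both strands, 5 motifs were searched, none of which contains another: the cyclic AMP response element TGACGTCA, the steroidogenic factor site AAGGTCA, the GATA site GATAA, the AP-1 site TGANTCA and the TATA box TATAAA. Of 32851 RefSeq promoters of the same length, 1.79% held the first, 4.72% the second, 25.4% the GATA site, 7.81% the AP-1 site and 13.6% the TATA box. The windows shown held 1 match in all, the TATA box of Inhba, which began at position -91 counted from the start. The window of Fstl3 held a TATA box match on the minus strand. A match is a run of letters and not a site known to be used, and the other motifs are absent only from these windows.

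Values below are background-subtracted signals on the log2 scale after the 75th percentile of each array was subtracted, so 0 stands for that percentile and 1 unit is a doubling. Levels are compared between arrays for 1 probe at a time, never between probes, and only the marker lists pool probes. Changes were tested with limma over all 21986 genes, with Benjamini-Hochberg adjustment, and the threshold for a call was an adjusted p of 0.05. Values after ± are limma standard errors for n = 2 arrays per stage, and the p-values measure only the spread between these duplicates. The duplicates of E12.5 and E13.5 were split over slides 1 and 2, with array 1 of both stages on slide 1 and array 2 of both on slide 2. Slide 3 carried the E14.5 and E15.5 arrays, and each slide was scanned in a session of its own. The first step, from E12.5 to E13.5, could therefore be read within slides, as could the last. In the middle step and over the whole span, slide and stage cannot be told apart. Between 60.3% and 69.8% of probes were well above background on an array, and all 8 probes of the 6 genes were so on all 8 arrays. On slide 3, array 1 of E14.5 correlated across genes with array 2 of E15.5 at r of 0.983, as high as with its own duplicate at 0.982. Array 2 of E14.5 correlated with array 1 of E15.5 at 0.986. All 9 tested markers of Sertoli cells, the supporting cells of the testis, were above background on all arrays.

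**Figure D1:**
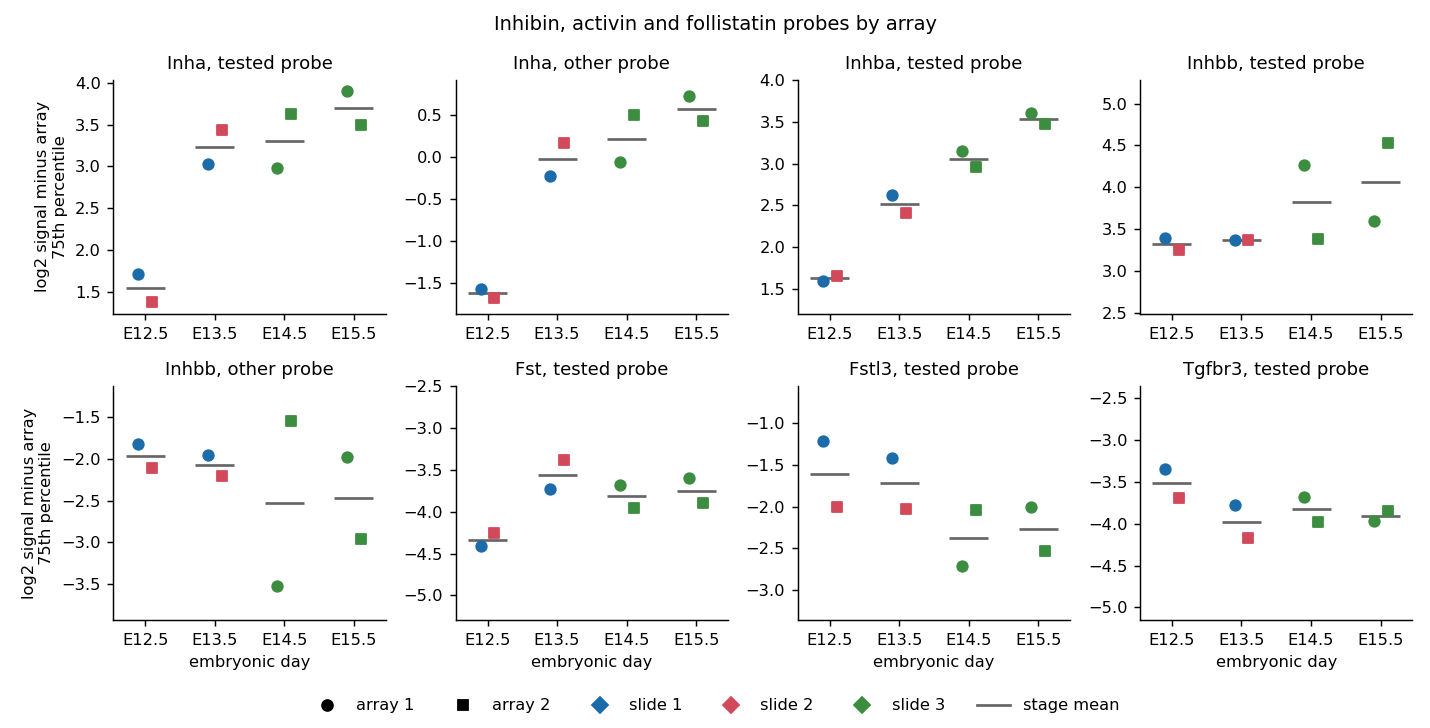
Log2 signal relative to the 75th percentile of its array for each of the 8 probes, with embryonic day on the horizontal axis, 1 point per array coloured by slide and a bar at the stage mean. Both Inha probes and the Inhba probe stood higher on every E13.5, E14.5 and E15.5 array than on either E12.5 array, and the Inhbb probes spread most on slide 3. From E12.5 to E13.5 alone, 22.3% of all genes were separated in this direction.

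Over the whole span, from E12.5 to E15.5, the alpha subunit gene Inha and the beta A subunit gene Inhba rose, by 4.44-fold and 3.76-fold. The beta B gene Inhbb and the genes for follistatin, its relative Fstl3 and betaglycan were not called. From E12.5 to E13.5 only Inha was called among the 6, and in the 2 later steps none was. The count was 1 of 6 in E13.5 against E12.5, where 3.98% of all genes tested were called, and 0 of 6 in E14.5 against E13.5, where 12.5% were. It was 0 of 6 in E15.5 against E14.5, beside 0.655% of all genes, and 2 of 6 in E15.5 against E12.5, beside 35% of all genes and 17.6% that were called higher. At an unadjusted limma p under 0.05, Inhba passed in both of the steps with a count of 0, at 0.0230 and 0.0346. Such a p was common, since the rank of Inhba by p was 5095 and 1741 of 21986 genes in these steps. By a test over all stages, which called 31.1% of all genes, Inha had an adjusted p of 0.0092 and Inhba of 0.0027. Comparisons that use the same stage share its arrays, so they are not independent of each other.

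The subunit genes come first. Inha encodes the alpha subunit, the one found in inhibins and not in activins. Its tested probe read 1.71 and 1.37 on the E12.5 arrays, 3.03 and 3.44 at E13.5, 2.98 and 3.63 at E14.5, and 3.90 and 3.49 at E15.5. Both E12.5 arrays lay below all others, and at the first step alone 22.3% of all genes were separated in this direction. The E13.5 and E14.5 arrays overlapped each other, and so did those of E14.5 and E15.5. The change from E12.5 to E13.5 was 1.69 ± 0.30 (limma adjusted p = 0.0347), a 3.23-fold rise, and it was 1.32 within slide 1 and 2.06 within slide 2. The later steps were 0.07 ± 0.30 (adjusted p = 0.887) and 0.39 ± 0.30 (adjusted p = 0.888). The first step exceeded the last by 1.31 ± 0.43, a difference that did not pass the test (adjusted p = 0.215), as 2.34% of all genes did. Over the whole span the change was 2.15 ± 0.30 (adjusted p = 0.0029).

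The other Inha probe read -1.58 and -1.68 at E12.5 and -0.22 and 0.17 at E13.5. It read -0.06 and 0.50 at E14.5, and 0.73 and 0.43 at E15.5. With every probe tested on its own, its change was 1.60 ± 0.26 from E12.5 to E13.5 (limma adjusted p = 0.0288) and 2.21 ± 0.26 over the whole span (adjusted p = 0.0016). Both probes of the gene thus passed the test in the same comparisons. The call from E12.5 to E13.5 was lost when any 1 array of either stage was left out, at adjusted p of 0.0737 and 0.178 when array 1 or 2 of E12.5 was dropped, and 0.0919 and 0.190 when array 1 or 2 of E13.5 was. It was also lost without either E15.5 array (0.0649), while the call over the whole span was kept in all these cases, at adjusted p of at most 0.0206.

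Inhba encodes the beta A subunit, which makes activin A with itself and inhibin A with the alpha subunit. It read 1.60 and 1.66 at E12.5, 2.62 and 2.41 at E13.5, 3.15 and 2.96 at E14.5, and 3.61 and 3.47 at E15.5. The arrays of each stage lay above those of the stage before, with no overlap at any step, a pattern that 22.3%, 29.2% and 19.8% of all genes showed at the 3 steps. The steps were 0.89 ± 0.18 (limma adjusted p = 0.0522), 0.54 ± 0.18 (adjusted p = 0.0990) and 0.48 ± 0.18 (adjusted p = 0.436), none of which passed the test. Within slides the first step was 1.02 and 0.75, and the last, over the 4 pairs of arrays on slide 3, ran from 0.32 to 0.65. Over the whole span the change was 1.91 ± 0.18 (adjusted p = 0.0007). That call was kept without any 1 array, with changes from 1.84 to 1.98.

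Inhbb encodes the beta B subunit, the partner of the alpha subunit in inhibin B. Its tested probe read 3.39 and 3.25 at E12.5, 3.37 and 3.36 at E13.5, 4.26 and 3.38 at E14.5, and 3.60 and 4.52 at E15.5. The 4 arrays of slides 1 and 2 lay close together, and the duplicates of slide 3 stood far apart, with an SD of 0.62 at E14.5 and 0.65 at E15.5 against 0.10 at E12.5. The change over the whole span was 0.74 ± 0.39 (limma adjusted p = 0.181), with a 95% interval from -0.19 to 1.67, and that from E12.5 to E13.5 was 0.05 ± 0.39 (adjusted p = 0.982). The other probe read -1.82 and -2.11 at E12.5, -1.95 and -2.21 at E13.5, -3.52 and -1.54 at E14.5, and -1.98 and -2.96 at E15.5. On slide 3 it was low on the arrays where the tested probe was high, and its change over the whole span was -0.51 ± 0.64 (adjusted p = 0.560). The probes of Inhbb therefore gave opposite signs.

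**Figure D2:**
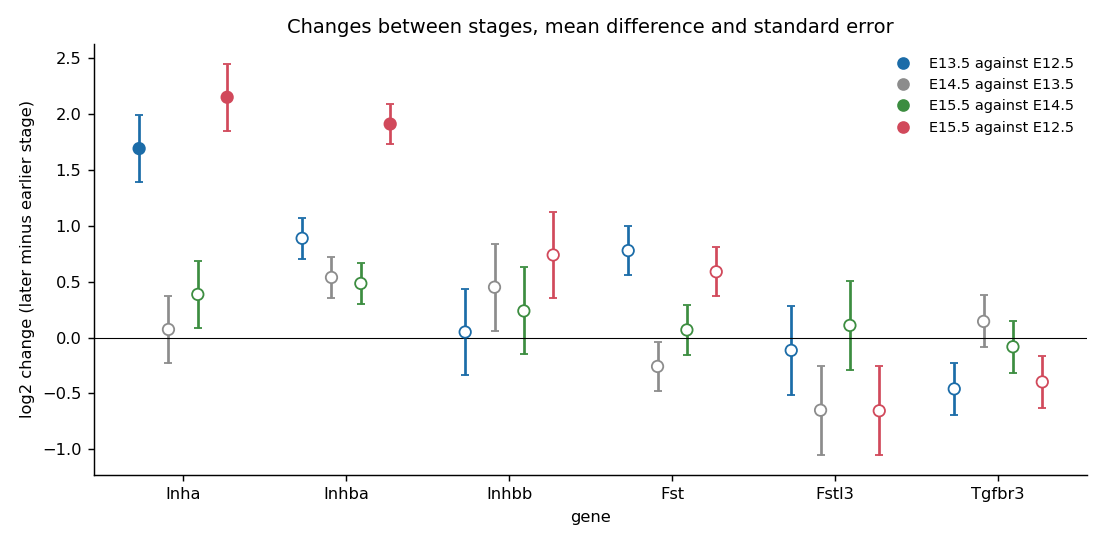
Log2 change of the tested probe of each gene in 4 comparisons of stages, as the mean difference with its limma standard error (2 arrays per stage). Filled points had an adjusted p under 0.05: Inha at 1.69 and 2.15 and Inhba at 1.91.

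The antagonists of activin were dim or scattered. Fst encodes follistatin, which binds activin almost irreversibly. It read -4.41 and -4.26 at E12.5, -3.73 and -3.38 at E13.5, -3.67 and -3.96 at E14.5, and -3.60 and -3.89 at E15.5. Both E12.5 arrays lay below the other 6, and the arrays of the 3 later stages overlapped. At the first step alone, 22.3% of all genes had both E13.5 arrays above both of E12.5. Its signal before scaling was 41.9 to 147, where the lowest signal well above background on an array was 13.5 to 41.7, so the probe was near the dim end. The change was 0.78 ± 0.22 from E12.5 to E13.5 (limma adjusted p = 0.126; 95% interval from 0.25 to 1.31), with 0.68 within slide 1 and 0.87 within slide 2. Over the whole span it was 0.59 ± 0.22 (adjusted p = 0.0805). Neither passed the test.

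Fstl3 encodes a secreted and nuclear relative of follistatin that also binds activin. It read -1.21 and -2.01 at E12.5, -1.42 and -2.03 at E13.5, -2.71 and -2.04 at E14.5, and -2.003 and -2.53 at E15.5. Slide 1 stood above slide 2 at both early stages. Array 2 of E14.5 was nearly level with the slide 2 arrays, and the E15.5 arrays overlapped with every other stage. The change over the whole span was -0.66 ± 0.40 (limma adjusted p = 0.238; 95% interval from -1.61 to 0.30), and the largest step was -0.65 ± 0.40 from E13.5 to E14.5 (adjusted p = 0.301), across slides.

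Tgfbr3, the gene of the inhibin co-receptor betaglycan, read -3.34 and -3.69 at E12.5, -3.78 and -4.17 at E13.5, -3.68 and -3.98 at E14.5, and -3.97 and -3.85 at E15.5. The E12.5 arrays were the highest except that the second lay level with array 1 of E14.5, and the later stages overlapped. The signal of Tgfbr3 before scaling was 49.8 to 119, near the dim end as for Fst. Its change was -0.46 ± 0.23 from E12.5 to E13.5 (limma adjusted p = 0.394), at -0.44 within slide 1 and -0.48 within slide 2, and -0.40 ± 0.23 over the whole span (adjusted p = 0.223; 95% interval from -0.95 to 0.16).

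Activin receptors and the rest of the pathway were described through lists of 63 genes, of which 51 were tested. Over the whole span, 9 of these 51 were called higher and 14 lower, or 45.1% beside 35% of all genes, and the median change was -0.33 beside -0.07 over all genes. From E12.5 to E13.5, 1, Lhcgr, was called higher and 2, Acvr1c and Fgf9, lower (5.88% beside 3.98%). From E13.5 to E14.5, 0 were called higher and 5 lower (9.8% beside 12.5%), namely Foxh1, Smurf2, Nr5a2, Creb1 and Fgf9. Of these the Nr5a2 call alone was kept without any 1 array, and Creb1 was at -1.05 on its tested probe but at 0.56 and 0.24 on its other probes. From E14.5 to E15.5 none was called (0 beside 0.655%). Of the 23 calls over the whole span, 9 were kept without any 1 array: Acvr1c, Foxh1, Smurf2, Fstl4, Nr5a2, Creb1, Fshr, Lhcgr and Fgf9. Another 4 were lost only without E15.5 array 2, at adjusted p of 0.0539 for Igsf1, 0.0553 for Inhbe, 0.0572 for Furin and 0.0573 for Bmpr2. The other 10 were lost without any of several arrays, at adjusted p of up to 0.235. All 23 calls compare arrays of different slides, so slide and stage cannot be told apart in them.

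Among 6 genes listed as activin or inhibin receptors, 2 were called higher and 2 lower over the whole span, where 35% of all genes were called. Their median change was 0.24. Acvr1c, which encodes the type I receptor ALK7, fell early: it read -3.13 and -2.84 at E12.5, -5.11 and -5.41 at E13.5, and -6.02 and -5.04 at E15.5. Its change from E12.5 to E13.5 was -2.27 ± 0.38 (limma adjusted p = 0.0281), and at E15.5, where it was not well above background on either array, it was at least 5.83-fold lower than at E12.5. Its other probes gave -2.51 and -1.35 at the first step, and that call was lost without any 1 array of E12.5 or E13.5 (adjusted p up to 0.153). Acvr2b, a type II activin receptor gene, read 0.71 and 1.08 at E12.5, 0.11 and 0.62 at E13.5, -2.46 and -0.80 at E14.5, and -1.16 and -2.26 at E15.5. Its fall over the whole span was -2.60 ± 0.60 (adjusted p = 0.0173), lost without E12.5 array 2 or E15.5 array 2 (adjusted p up to 0.101).

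Acvr2a, the other type II activin receptor gene, rose by 0.72 ± 0.22 (limma adjusted p = 0.0431), but its second probe gave -0.06 and the call was lost without 7 of the 8 arrays (adjusted p up to 0.207). Igsf1, which encodes a membrane glycoprotein, rose by 1.004 ± 0.18 (adjusted p = 0.0080), and its second probe gave 1.38. Acvr1 and Acvr1b, both of which encode type I receptors, were not called, at 0.50 ± 0.27 and -0.02 ± 0.40. Bmpr2, a type II receptor gene of the BMP branch, fell by 3.42 ± 0.64 on the log2 scale (adjusted p = 0.0086). Its duplicates were far apart at each stage after E12.5. They read 0.04 and 1.48 at E13.5, -0.91 and -2.25 at E14.5, and -0.59 and -1.62 at E15.5. Tgfbr1 and Tgfbr2, the TGF-beta receptor genes, were at -0.33 ± 0.20 and 0.40 ± 0.17 and were not called. Their other probes gave -0.53 and -1.01. Bmpr1b, a type I receptor gene, rose by 0.62 ± 0.19 (adjusted p = 0.0426), a call lost without any 1 of the 8 arrays (up to 0.177).

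Among 8 genes of SMAD signalling, 1 was called higher and 3 lower over the whole span, where 35% of all genes were called. Foxh1, which encodes a DNA-binding partner of activated SMADs, read 2.06 and 1.80 at E12.5, 1.92 and 1.39 at E13.5, 0.28 and 0.40 at E14.5, and 0.24 and 0.16 at E15.5. It fell by 1.73 ± 0.23 on the log2 scale (limma adjusted p = 0.0025). Smurf2, whose product marks receptors and SMADs for degradation, fell by 1.57 ± 0.18 (adjusted p = 0.0014), and Bambi, which encodes a decoy receptor, by 0.88 ± 0.19 (adjusted p = 0.0150). Smad2, the gene of a SMAD that activin receptors phosphorylate, rose by 0.69 ± 0.21 (adjusted p = 0.0412), whereas Smad3 was at -0.17 ± 0.28 (adjusted p = 0.661). The Bambi call was lost without any 1 array of E12.5 or E15.5 and that of Smad2 without any 1 array of E12.5, E13.5 or E15.5, at adjusted p of up to 0.0901 and 0.214. Most of the Foxh1 and Smurf2 differences lay at the step across slides, at -1.31 and -0.92. That step was 0.72 for Smad2 and -0.64 for Bambi.

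Among 6 other ligand genes, Gdf9, known from oocytes, rose by 1.84 ± 0.41 (limma adjusted p = 0.0152), a call lost without E12.5 array 1 or E15.5 array 2 (up to 0.0925). Inhbe, the gene of another beta subunit, fell by 1.29 ± 0.24 (adjusted p = 0.0077) and was well above background on 1 of the E15.5 arrays, and Amh, the anti-Müllerian hormone of Sertoli cells, was at -0.42 ± 0.19 (adjusted p = 0.135). Of 2 tested proconvertase genes, Furin, whose product cleaves precursors of the TGF-beta family, rose by 1.57 ± 0.30 (adjusted p = 0.0086), and Pcsk7 was at 0.48 ± 0.28 (adjusted p = 0.220). Of 7 other genes with follistatin domains, Fstl4 fell by 1.65 ± 0.25 (adjusted p = 0.0038) and Smoc1 by 0.73 ± 0.23 (adjusted p = 0.0481), and Fstl1 rose by 0.68 ± 0.17 (adjusted p = 0.0236). Fstl1 and Smoc1 lost their calls without any 1 array of E12.5 or E15.5, and Smoc1 also without either of E13.5, at adjusted p of up to 0.129 and 0.235.

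**Figure D3:**
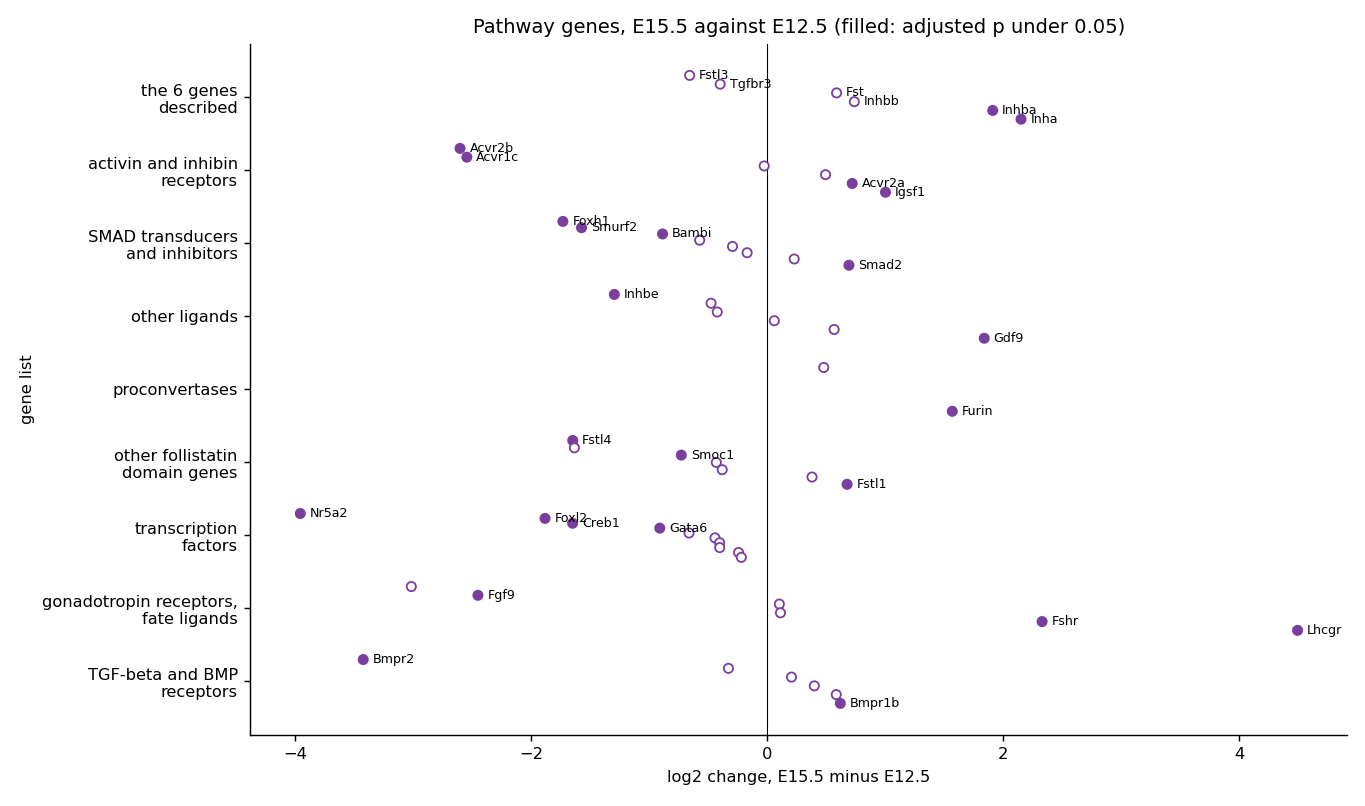
Log2 change from E12.5 to E15.5 on the horizontal axis for the 6 genes and the tested genes of 8 pathway lists, 1 point per gene, filled where the adjusted p was under 0.05. Of the 51 listed genes, 9 were called higher and 14 lower, from Nr5a2 at -3.95 to Lhcgr at 4.50, where 35% of all genes were called. At one of the stages Lhcgr, Acvr1c, Foxl2, Fshb and Fstl5 were not well above background on either array, and Fshr and Inhbe, and at both stages Acvr1b, were well above it on 1 array.

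Of 10 genes for transcription factors known to act on inhibin subunit or follistatin genes, 0 were called higher and 4 lower over the whole span. Of all genes 35% were called in that comparison, and the median change of the list was -0.55 beside -0.07 over all genes. Nr5a1, the gene of steroidogenic factor 1, and Gata4 were not called, at -0.40 ± 0.49 and -0.40 ± 0.63, and the other Gata4 probe gave 0.43. On slide 3 Nr5a1 read -1.76 and -0.42 at E14.5 and -0.38 and -1.404 at E15.5, low on the same arrays as the second Inhbb probe. Nr5a2, a close relative of Nr5a1, read -0.35 and -0.48 at E12.5, -0.9999 and -1.26 at E13.5, -2.85 and -3.22 at E14.5, and -4.21 and -4.52 at E15.5. It fell by 3.95 ± 0.22 on the log2 scale (limma adjusted p = 0.000151). Foxl2, which in the ovary activates Fst, was at least 2.52-fold lower at E15.5, where it was not well above background on either array (adjusted p = 0.0415). Its E12.5 duplicates were far apart, at -3.46 and -5.02, and the call was lost without any 1 of 5 arrays (up to 0.165). Gata6 fell by 0.91 ± 0.19 (adjusted p = 0.0124, lost without 3 of the arrays, up to 0.0809), and its other probes gave -0.45 and -3.27. The tested probe of Creb1, the cyclic AMP response factor, fell by 1.65 ± 0.19 (adjusted p = 0.0014), but its other probes gave 0.05 and -0.09.

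The list of gonadotropin genes and ligands of testis and ovary fate had 6 tested genes. Over the whole span 2 were called higher, Fshr and Lhcgr, and 1 lower, Fgf9, where 35% of all genes were called. Fshr, the receptor of follicle-stimulating hormone on Sertoli cells, read -5.31 and -6.01 at E12.5, -4.49 and -4.27 at E13.5, -4.25 and -3.86 at E14.5, and -3.24 and -3.42 at E15.5. It rose by 2.33 ± 0.28 (limma adjusted p = 0.0018), and was well above background on 1 of the E12.5 arrays. Lhcgr, the luteinizing hormone receptor of Leydig cells, was not well above background on the E12.5 arrays, and its E15.5 level was at least 10.2-fold higher (adjusted p = 0.0008). At E13.5 it was at least 2.67-fold higher (adjusted p = 0.0328), a call lost without 7 of the 8 arrays (up to 0.175). Fgf9, a ligand that favours testis fate, fell by 1.37 ± 0.18 on the log2 scale at the first step (adjusted p = 0.0133, lost without any 1 of those arrays, up to 0.100) and by 2.45 ± 0.18 over the whole span (adjusted p = 0.0003). Fshb, the gene of the hormone subunit that inhibins hold down in the pituitary, read -4.39 and -2.42 at E12.5 and was not well above background at E15.5. It was at least 4.57-fold lower there, which did not pass the test (adjusted p = 0.0771). Wnt4 and Rspo1, which favour ovary fate, were not called, at 0.10 ± 0.36 and 0.11 ± 0.41.

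Cell type markers moved with some of these genes. All 7 markers of fetal Leydig cells were called higher both from E12.5 to E13.5 and over the whole span, where 3.98% and 35% of all genes were called. Their median changes were 2.04 and 2.70 beside -0.06 and -0.07 for all genes. Their summed level, in multiples of the array's 75th percentile, was 24.2 to 31.4 at E12.5, 102 to 131 at E13.5, 114 to 142 at E14.5 and 138 to 162 at E15.5, and all but Lhcgr were above background on the E12.5 arrays. Such a sum is weighted to the brightest genes of a list. Of 9 Sertoli markers, 0 were called from E12.5 to E13.5 and 1, Mro, was called higher over the whole span. Their summed level was 170 to 181 at E12.5, 201 to 208 at E13.5, 162 to 178 at E14.5 and 139 to 140 at E15.5. The median change of the Sertoli markers over the whole span was -0.36. The part of these cell types in the Inha and Inhba values was not tested, and in whole gonads fewer cells of a type and less RNA per cell cannot be told apart.

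Of 5 markers of female supporting cells, set beside Fst, 0 were called higher and 2, Foxl2 and Lgr5, lower over the whole span. Their summed level was 9.57 to 12.1 at E12.5 and 9.58 to 12.6 at E15.5. This sum mostly followed Rspo1, the brightest of them, which changed by 0.11. Of 6 erythroid genes tested, 5 were called lower over the whole span, with a median change of -3.63. Their summed level was 287 to 487 at E12.5 and 185 to 201 at E15.5, and mostly followed Hba-a1, the brightest, at -0.25. Of 7 germ cell markers, 3 were called higher at the first step, and 2 higher and 4 lower over the whole span. Their summed level was 68.4 to 72.2 at E12.5 and 76.1 to 101 at E15.5, whereas their median change was -1.07. Interstitial and peritubular markers gave 3 of 7 higher, endothelial markers 2 of 6 lower, macrophage markers 2 of 4 higher and 1 lower, and markers of mesonephros and nephric duct 1 of 7 higher and 3 lower over the whole span. Of all genes, 3.98% were called at the first step. Over the whole span 35% were called and 17.6% were called higher. Whether any of these lists differed from all genes was not tested.

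**Figure D4:**
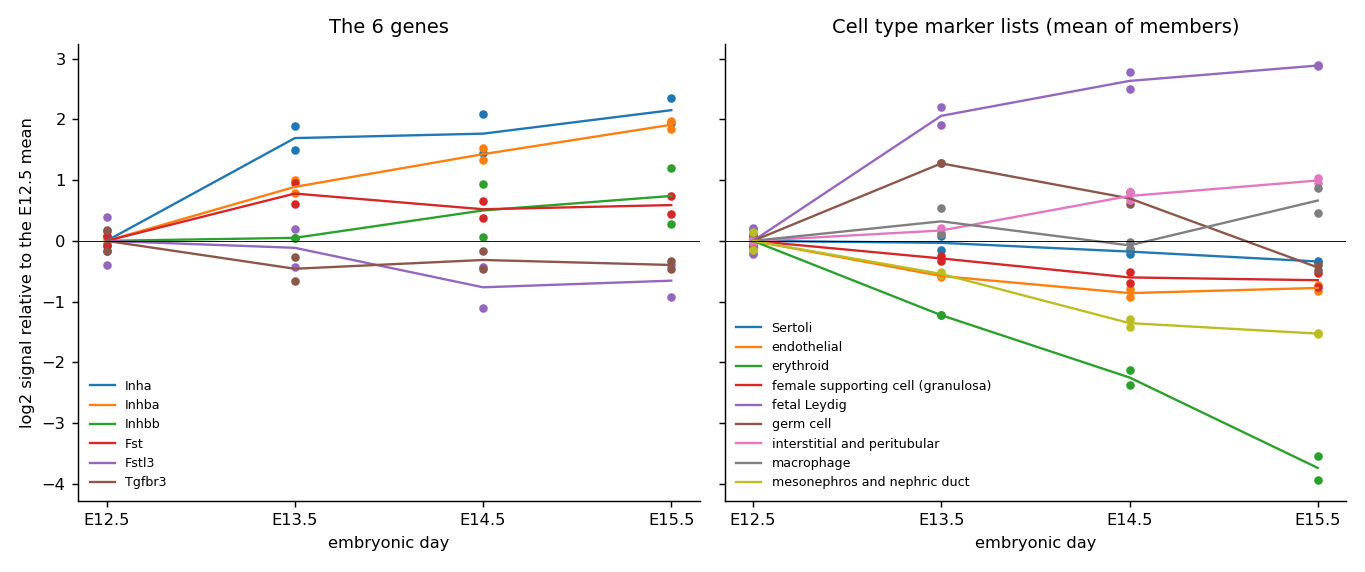
Log2 signal relative to the E12.5 mean at each embryonic day, for the 6 genes on the left and for the mean of each cell type marker list on the right, with a point per array and a line through stage means. Inha and Inhba reach 2.15 and 1.91 at E15.5, and the fetal Leydig list is the highest of the 9 lists at E13.5, E14.5 and E15.5.

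The genes whose pattern over the 8 arrays was most like each member were taken by Pearson r among 11815 genes with a symbol that were above background on every array. The points share 4 stages and 3 slides, so these values only describe likeness. For Inha they were Cyp17a1 (r = 0.994), Jak3 (0.987) and Cacng4 (0.985), of which Cyp17a1 is also in the Leydig list and changed by 2.04, 0.13 and 0.35 at the 3 steps. For Inhba they were Cfap69 (0.994), Fabp3 (0.993) and Igfbp6 (0.993), with changes over the whole span of 1.77, 1.45 and 2.01. Genes much like the tested Inhbb probe were Dipk1a (0.991) and Lrp12 (0.979), whose changes over the whole span were 0.44 and 0.56. That probe varied mostly between duplicates on slide 3, where the other Inhbb probe went the opposite way.

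Among the other members likeness was lower for Fst, with Fuca1 (r = 0.951), Ccdc17 (0.950) and H2-T10 (0.946). Fstl3 was most like Aco1 (0.981), Ubac2 (0.972) and P4hb (0.966), and Tgfbr3 was most like Lhx9 (0.978), Tango6 (0.964) and Zmynd8 (0.961). Between members, r over the 8 arrays was 0.88 for Inha with Inhba, 0.34 for Inha with Inhbb and 0.64 for Inhba with Inhbb. It was -0.74 for Inhbb with Fstl3 and -0.79 for Fst with Tgfbr3. The values with Inhbb are for its tested probe alone, and r was not computed for its other probe. Within the E14.5 and the E15.5 duplicates, Fstl3 and the other Inhbb probe were both low on the array where the tested probe was high. An inverse relation of Inhbb with Fstl3 can therefore not be read from the -0.74.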

How the data were processed

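RNA of whole male gonads was measured on 8 one-colour Agilent arrays, 2 per stage. The deposited scanner files hold spot intensity, background-subtracted by Agilent Feature Extraction per the file headers, which give version 9.1.3.1 for E12.5 and E13.5 and 9.5.3.1 for E14.5 and E15.5, where the submitters' processing notes name 9.5. The authors also deposited a table with a linear ratio per probe and stage, whose scaling and centring are unknown, and it served only to check directions. Spots of a probe were averaged, and log2 signals were set against the array's 75th percentile over non-control probes. Probes well above background on both arrays of a stage were kept (28188 of 41174), and the brightest of each gene was tested (21986 genes, 13474 with a symbol through RefSeq accessions). One limma 3.58.1 model in R 4.3.3 covered all 8 arrays, with 4 residual degrees of freedom. Depth does not apply to arrays, and their number limits the precision. In simulated data, 100 genes were changed by 2 log2 units and 100 by 1, at E13.5 only, with all others unchanged. From E12.5 to E13.5, 30 and 0 of these were called, with 0 false calls. With so few genes changed the adjustment is stricter than where many change. These counts therefore do not carry over to the comparisons above. A gene dim at a stage is given as "at least N-fold", against the higher of its own value and the lowest signal well above background. The 6 genes, the lists and the rule for genes named (all 6, called list genes and the largest uncalled change of a list, and the 3 genes most like each member) were chosen with earlier results of these data known. One gene that the rule names is not reported here. Some uncalled list genes were named for their role, after their values were seen. Same-numbered arrays of E12.5 and E13.5 share a slide, which is where the pairing comes from. Alternatives covered background correction, scaling, the filter, slide blocks, probe choice and leaving out each array.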

Additional observations from a re-analysis of the deposited data

How the results depend on the processing

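Inha and Inhba were called over the whole span under all 19 alternatives with a test, and Tgfbr3 was called beside them under 1, limited normexp (-0.52, adjusted p = 0.0419). No alternative called a member from E13.5 to E14.5 or from E14.5 to E15.5. From E12.5 to E13.5 the number of members called, 1 as reported, was 2 (Inha and Inhba) with normexp on medians and extreme backgrounds limited, the percentile taken over spots, probes above background on all arrays, the slide as a random block, or the mean of a gene's probes. It was 0 with plain normexp on medians, quantile scaling, no filter, or only the arrays compared, and 0 to 1 with 1 array left out. By the test over all stages it was 0 with plain normexp and 1 to 2 with 1 array left out, where the Inha call needed array 2 of E12.5 (adjusted p = 0.0565 without it). With the slide as a fixed replicate block, which pairs same-numbered arrays of E12.5 and E13.5, Inha kept its call (adjusted p = 0.0479) and Inhba did not reach it (0.0577), and the block changed no other call of a member. Plain normexp met a local background of 32330 on E13.5 array 2, against at most 118 elsewhere, and then called 2 genes in all from E12.5 to E13.5. Over all genes that number, 874 as reported, was 419 with no filter, 139 with only the arrays compared, 553 with limited normexp and 188 to 695 with 1 array left out. The normexp, spot-percentile and single-probe settings were chosen after seeing the data.

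Of 492 alternative values for 24 changes of members, 28 had the opposite sign, all for changes that were not called, and their cause was not tested. Plain normexp gave -0.16 for Inhbb, 0.32 for Fstl3 and 0.72 for Tgfbr3 from E12.5 to E13.5 and -1.16 for Tgfbr3 from E13.5 to E14.5, where limited normexp gave -0.16. The mean of probes gave -0.032 and -0.00097 for Inhbb at the first 2 steps. Median scaling gave -0.075 for Fst and -0.035 for Fstl3 at the last step, and quantile scaling -0.088 for Fst. The authors' deposited table gave -0.072 for Inhbb at the first step, and -0.0091 for Inhbb, -0.18 for Fst and -0.14 for Fstl3 at the last, where its median over all genes was -0.23. With 1 array left out, the first step ran from -0.024 to 0.12 for Inhbb and from -0.51 to 0.29 for Fstl3. The middle step ran from -0.25 to 0.40 for Inha and from -0.051 to 0.34 for Tgfbr3. The last step ran from -0.22 to 0.70 for Inhbb, -0.078 to 0.22 for Fst, -0.23 to 0.45 for Fstl3 and -0.23 to 0.067 for Tgfbr3. Of the pathway genes, Acvr1c at the first step was 0.091 with plain normexp, and Bmpr1b over the whole span was -0.15 with plain and -0.14 with limited normexp. The number of the 51 pathway genes called ran from 0 to 4, 0 to 15, 0 to 0 and 6 to 24 over all settings in the 4 comparisons.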
